A study of Mus musculus with 15 samples.

Results

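Genes of the transforming growth factor beta (TGF-beta) pathway, namely 3 ligands, 3 receptors, 2 SMADs and 2 SMAD corepressors, were followed in the RNA of dendritic cells grown from mouse bone marrow (BMDCs). They are the 10 genes Tgfb1, Tgfb2, Tgfb3, Tgfbr1, Tgfbr2, Tgfbr3, Smad3, Smad7, Skil and Tgif1, taken by name from the 50554 genes of each count table. They were selected on the read counts of these libraries, since the names were listed with the differences between the 4 groups known, so the values of the 10 genes below are a description in every comparison, without a test. All 10 passed the filter on low counts that left 20865 genes.

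The study compared BMDCs of 2 genotypes, each with lipopolysaccharide (LPS), a component of the outer membrane of Gram-negative bacteria that cells sense through TLR4, or unstimulated (US). All mice were CreERT2 transgenic and tamoxifen treated, so that a floxed Mysm1 allele was deleted in every group. Mice labelled Δ/DN (from Mysm1 fl/DN) keep an allele for catalytically inactive MYSM1, a deubiquitinase of histone H2A, and mice labelled Δ/+ (from Mysm1 fl/+) keep a wild-type allele. Marrow was taken over 12 weeks after tamoxifen and grown for 9 days with the growth factor GM-CSF, and the cells were then held for 18 h with 10 ng/mL LPS or without it. The labels used here state neither age nor sex of the mice. There were 4 Δ/DN LPS, 3 Δ/+ LPS, 4 Δ/DN US and 4 Δ/+ US libraries from 8 cultures, 7 of which gave both an LPS and a US library. The series description gives each lettered group of mice the opposite genotype from the sample fields. The sample fields were followed here, and if the series description is the right source, every genotype difference below changes sign.

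TGF-beta is secreted in a latent form, held by a propeptide and by latent TGF-beta binding proteins, and is set free by integrins, thrombospondin-1 or proteases. The active ligand joins the type II receptor to the type I receptor, which phosphorylates SMAD2 and SMAD3. These bind SMAD4 and act on genes in the nucleus, where SMAD7, SKIL and TGIF1 restrain the signal. In dendritic cells TGF-beta is known as a brake on maturation and as a factor for Langerhans cell development.

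The libraries held 37256651 to 104041282 counted reads. LPS libraries of Δ/DN had 30.8 to 39.97 CPM of Mysm1 (CPM are reads adjusted for library depth with TMM factors), against 41.29 to 44.58 CPM in Δ/+ LPS libraries, and US libraries of Δ/DN had 28.07 to 48.95 CPM, against 46.28 to 54.09 CPM in Δ/+ US libraries. Mysm1 differed between Δ/DN and Δ/+ by -0.28 ± 0.16 (SE) on the log2 scale with LPS and by -0.28 ± 0.14 without it (edgeR quasi-likelihood test, adjusted p = 0.299 and adjusted p = 0.213), and its counts do not separate the inactive from the wild-type allele. Δ/DN culture 3 stood apart from the others, with 10.4% of the reads of its US library from 7SL RNA, where the other US libraries had 3.42% to 5.66%, and with 3.69 CPM (LPS) and 1.94 CPM (US) of the Y-linked gene Ddx3y. Δ/DN culture 4 had no Ddx3y reads and 1166 CPM (LPS) and 1144 CPM (US) of Xist, and the other 6 cultures had 47.2 to 105 CPM of Ddx3y. Both Δ/DN cultures belong to library set 3, a name taken from the prefix of the library names, which also held Δ/+ culture 4. Of 12 dendritic cell markers, Itgax and Cd74 were abundant in all libraries, at 842 to 1750 CPM and 2820 to 7740 CPM, while Flt3 lay at 0.754 to 2.66 CPM. Xcr1, Clec9a and Cd209a were also low, at no more than 0.854, 3.4 and 1.47 CPM. Macrophage markers (12 genes) summed to 2462 to 3148 CPM in Δ/DN LPS and 2339 to 2348 CPM in Δ/+ LPS libraries. Without LPS they summed to 2621 to 2926 CPM in Δ/DN and 2313 to 2545 CPM in Δ/+. With LPS 2 of these 12 were called higher in Δ/DN (C1qa and Gpnmb) and 1 lower (Cd68) at adjusted p under 0.05. That is 25% of the 12, where 8.6% of all genes tested were called. Without LPS 4 were called higher (C1qa, C1qb, C1qc and Gpnmb) and 1 lower (Cd68), 41.7% of the 12 against 10.5% of all genes. Neutrophil markers (10 genes) summed to 92.6 to 931 CPM in Δ/DN LPS and 56.6 to 106 CPM in Δ/+ LPS libraries. Without LPS they summed to 81.7 to 806 CPM in Δ/DN and 50.5 to 102 CPM in Δ/+. The spread in Δ/DN was wide, with S100a9 at 26.2 to 353 CPM without LPS. Of the 10, only Csf3r was called between genotypes with LPS and without, where 8.6% and 10.5% of all genes tested were. Dendritic cell markers were called higher in Δ/DN for 1 of 12 with LPS (Dpp4) and 3 without (Dpp4, Kmo and Xcr1), and none lower. Among 7 tested progenitor markers, Cd34 was called higher and Meis1 lower with LPS, and Cd34 and Myb higher without. Lists of plasmacytoid, mast cell, lymphoid and erythroid markers also held calls, not all in the same direction. The part of any of these cell types in the differences was not tested.

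Promoter sequence is shown for 4 of the 10 genes, a pair of receptors whose RNA was lower with LPS and a ligand and a corepressor whose RNA was higher with LPS. RefSeq promoter entries (build GRCm38.p6) were matched for 6 of the 10 genes. Each line gives the 250 bases before the annotated start, 5′ to 3′ on the strand of the gene, and capitals mark matches on either strand to the SMAD box CAGAC or to a kappa B pattern of GGG, any 5 bases and CC. Tgfbr1 lies on the plus strand at chr4:47352972-47353221 and the others on the minus strand, Tgfbr2 at chr9:116175364-116175613, Tgfb2 at chr1:186705990-186706239 and Tgif1 at chr17:70853533-70853782.
Tgfbr1 promoter: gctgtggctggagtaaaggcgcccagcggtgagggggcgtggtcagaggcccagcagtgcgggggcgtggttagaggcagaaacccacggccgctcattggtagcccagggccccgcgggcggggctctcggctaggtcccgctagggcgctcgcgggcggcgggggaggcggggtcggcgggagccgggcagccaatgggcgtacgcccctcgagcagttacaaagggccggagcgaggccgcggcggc
Tgfbr2 promoter: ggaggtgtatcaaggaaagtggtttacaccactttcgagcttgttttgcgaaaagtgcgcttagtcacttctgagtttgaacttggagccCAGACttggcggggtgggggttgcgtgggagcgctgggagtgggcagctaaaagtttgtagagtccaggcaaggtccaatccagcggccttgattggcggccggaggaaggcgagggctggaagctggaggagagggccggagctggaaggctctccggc
Tgfb2 promoter: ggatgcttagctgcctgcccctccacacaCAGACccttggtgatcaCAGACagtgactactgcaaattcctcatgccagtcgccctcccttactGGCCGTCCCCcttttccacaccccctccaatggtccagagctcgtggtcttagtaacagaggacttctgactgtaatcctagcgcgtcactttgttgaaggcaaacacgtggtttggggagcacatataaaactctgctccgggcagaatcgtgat
Tgif1 promoter: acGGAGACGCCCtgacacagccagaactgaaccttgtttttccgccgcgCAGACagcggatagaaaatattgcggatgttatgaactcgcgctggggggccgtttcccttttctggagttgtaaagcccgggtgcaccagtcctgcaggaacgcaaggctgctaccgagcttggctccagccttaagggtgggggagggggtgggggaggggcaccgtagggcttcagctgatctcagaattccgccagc
The window of Tgfbr1 held no match and 74.8% G and C, that of Tgfbr2 held 1 SMAD box, that of Tgfb2 held 2 SMAD boxes and 1 kappa B match, and that of Tgif1 held 1 of each. Of the matched genes not shown, Tgfb1 held 7 kappa B matches, some of them overlapping, and no SMAD box, and Smad3 held neither. Over 27025 promoters of the same length, 42.2% held the SMAD box and 45.4% the kappa B pattern. The AP-1 pattern TGANTCA was in 6.85% of them and in none of the 6 matched genes. No marked match overlapped another in these 4 windows, and a match is a run of letters, not a measured binding site.

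**Figure D1:**
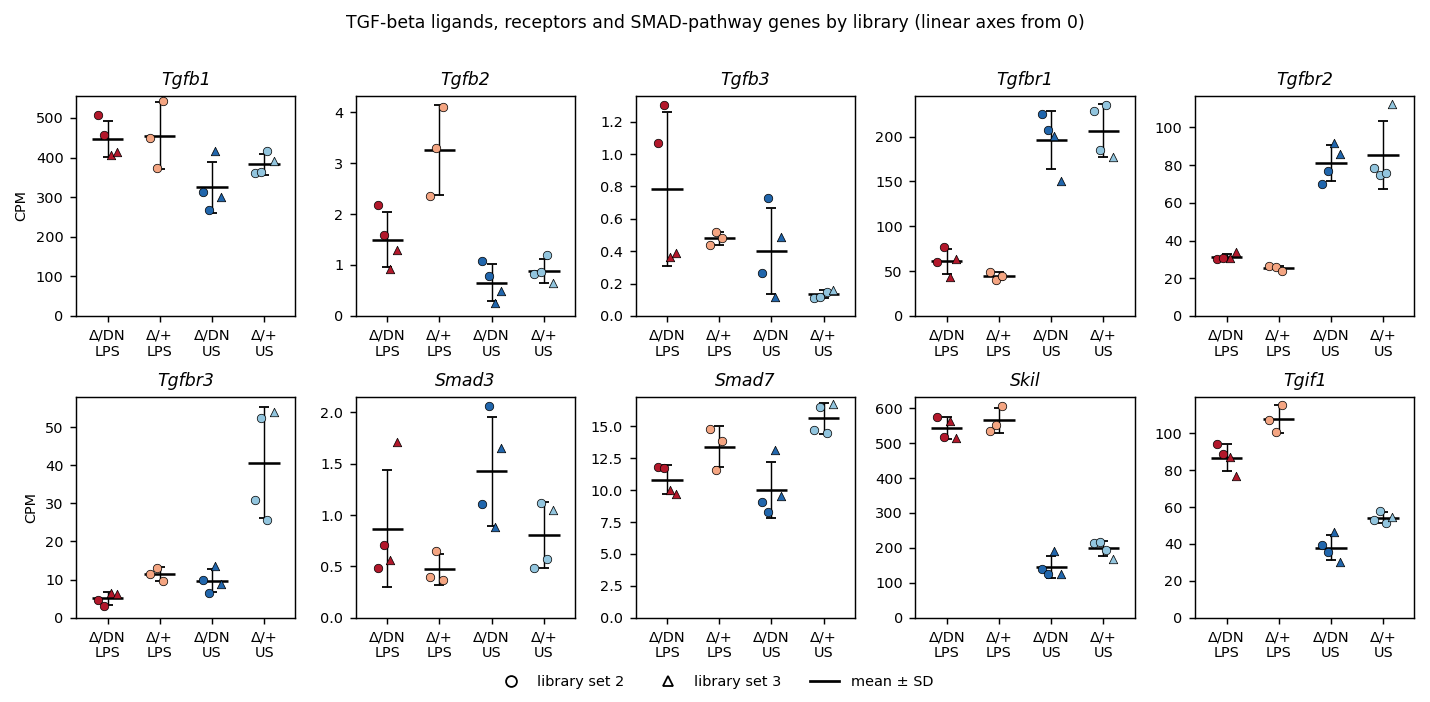
CPM (linear axis from 0) of the 10 genes in each library, by genotype and treatment, with circles for library set 2, triangles for library set 3 and bars for the mean ± SD of 4 Δ/DN LPS, 3 Δ/+ LPS, 4 Δ/DN US and 4 Δ/+ US libraries. Skil and Tgif1 are high with LPS, Tgfbr1 and Tgfbr2 are low with LPS, and Tgfbr3 is highest in the Δ/+ US libraries.

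Among the ligands Tgfb1 made up nearly all of the RNA. Per base of transcript (RPKM over GENCODE exon lengths), it held 99.04% to 99.9% of the summed level of Tgfb1, Tgfb2 and Tgfb3 in every library. TGF-beta 1 is the main isoform of immune cells. Its level was 508, 458, 406 and 415 CPM in Δ/DN LPS libraries, against 313, 267, 417 and 302 CPM in Δ/DN US libraries, and Δ/DN US replicate 3 lay inside the LPS range. In Δ/+ LPS libraries it was 450, 374 and 542 CPM, against 360, 363, 418 and 391 CPM in Δ/+ US libraries, with overlapping ranges. The log2 difference of LPS from US was 0.47 ± 0.14 (SE) in Δ/DN and 0.26 ± 0.16 in Δ/+. Between genotypes it was -0.04 ± 0.16 with LPS and -0.25 ± 0.15 without, and -0.40 ± 0.12 without LPS once culture 3 was left out.

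Tgfb2 and Tgfb3 were rare. TGF-beta 2 and TGF-beta 3 are isoforms best known from development and from epithelial and mesenchymal tissues. Tgfb2 had 2.19, 1.58, 0.927 and 1.3 CPM in Δ/DN LPS libraries, against 1.08, 0.787, 0.260 and 0.490 CPM in Δ/DN US libraries. In Δ/+ it had 2.35, 3.29 and 4.11 CPM with LPS, against 0.8292, 0.871, 1.19 and 0.640 CPM without. LPS libraries were the higher ones in both genotypes, with a slight overlap in Δ/DN, and the Δ/DN LPS libraries all lay under the Δ/+ LPS libraries. The log2 difference of LPS from US was 1.26 ± 0.28 in Δ/DN and 1.66 ± 0.29 in Δ/+, and that of Δ/DN from Δ/+ was -0.71 ± 0.31 with LPS and -0.31 ± 0.28 without.

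Tgfb3 rested on 5 to 88 reads a library. It had 1.07, 1.302, 0.365 and 0.390 CPM in Δ/DN LPS libraries and 0.436, 0.516 and 0.484 CPM in Δ/+ LPS libraries. Without LPS it had 0.267, 0.731, 0.117 and 0.490 CPM in Δ/DN, against 0.109, 0.119, 0.148 and 0.163 CPM in Δ/+. The Δ/DN libraries were spread over a wide range under both treatments, and culture 3 was the lowest of them both times. The log2 difference between genotypes was 1.67 ± 0.49 without LPS and 0.96 ± 0.51 with LPS, and the value without LPS ranged over 1.28 to 2.19 in the 8 refits that left out 1 library. The LPS difference was 0.83 ± 0.45 in Δ/DN and 1.55 ± 0.53 in Δ/+, and the Δ/+ value ranged over 1.4 to 1.9 in 7 such refits. Tgfb2 shares 124 exon bases with a gene on the opposite strand (Gm29491) and Tgfb3 shares 163 and 257 with others (Gm37804 and Gm48008), and reads of such partners cannot be told apart where strand was not used in counting.

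Tgfbr1, the type I receptor kinase that phosphorylates SMAD2 and SMAD3, and Tgfbr2, the type II receptor that binds the ligand, were low with LPS in both genotypes. Tgfbr1 lay at 59.7, 76.4, 43.0 and 63.8 CPM in Δ/DN LPS libraries, against 225, 208, 201 and 150 CPM in Δ/DN US libraries. In Δ/+ it lay at 48.4, 39.6 and 44.4 CPM with LPS, against 229, 186, 235 and 178 CPM without. No LPS library reached the level of any US library, and the log2 difference was -1.69 ± 0.14 in Δ/DN and -2.30 ± 0.16 in Δ/+. Between genotypes it was 0.61 ± 0.16 with LPS and 0.00 ± 0.14 without. The Δ/DN LPS libraries lay above the Δ/+ LPS libraries except for culture 3, and the difference with LPS was 0.50 to 0.69 in the 7 refits without 1 library. It was 0.46 ± 0.18 with no library set term and 0.52 ± 0.18 with the replicate number as a block. Same-numbered libraries of the genotypes correlated at only -0.089 to 0.146, so that block is not a real pairing.

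Tgfbr2 lay at 30.0, 30.6, 30.8 and 33.9 CPM in Δ/DN LPS libraries, against 70.2, 77.2, 91.5 and 85.9 CPM in Δ/DN US libraries. In Δ/+ it lay at 26.3, 25.9 and 24.02 CPM with LPS, against 78.4, 75.0, 75.8 and 112 CPM without. Here too the LPS and US libraries were fully apart, by -1.37 ± 0.09 on the log2 scale in Δ/DN and -1.66 ± 0.10 in Δ/+. The Δ/DN LPS libraries all lay above the Δ/+ LPS libraries by a small margin, a log2 difference of 0.16 ± 0.10, and without LPS the difference was -0.13 ± 0.09 with overlapping ranges. Per base of transcript the ratio of Tgfbr1 to Tgfbr2 was 1.75 to 3.13 in Δ/DN LPS, 1.92 to 2.32 in Δ/+ LPS, 2.19 to 4.02 in Δ/DN US and 1.98 to 3.89 in Δ/+ US libraries. In bulk libraries such as these, fewer cells of a type and less RNA per cell cannot be told apart.

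Tgfbr3, or betaglycan, is a proteoglycan co-receptor that presents TGF-beta, above all TGF-beta 2, to the type II receptor and also binds inhibin. It differed most between the genotypes among the 10 genes. Without LPS it had 9.81, 6.55, 13.7 and 8.72 CPM in Δ/DN, against 31.0, 52.3, 25.5 and 53.9 CPM in Δ/+. With LPS it had 4.54, 2.93, 6.50 and 6.29 CPM in Δ/DN, against 11.5, 13.1 and 9.70 CPM in Δ/+. Every Δ/DN library lay below every Δ/+ library of its treatment, and the spread within Δ/+ US was wide. Without LPS Δ/DN differed from Δ/+ by -2.22 ± 0.24 on the log2 scale, and by -2.40 to -2.0 in the 8 refits that left out 1 library. With LPS it was -1.52 ± 0.27, and -1.63 to -1.34 in the 7 refits without 1 library. In library set 2 alone it was -2.17 ± 0.34 without LPS and -1.62 ± 0.34 with LPS. With no library set term it was -2.07 ± 0.30 without LPS and -1.17 ± 0.32 with LPS. The replicate number as a block, which is not a real pairing of the genotypes, gave -2.07 ± 0.32 without LPS and -1.28 ± 0.35 with LPS.

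LPS libraries had less Tgfbr3 than US libraries in both genotypes, by -0.97 ± 0.23 in Δ/DN and -1.66 ± 0.26 in Δ/+ on the log2 scale. In order of level, Δ/+ US stood highest at 40.7 ± 14.5 CPM (SD, n = 4), then Δ/+ LPS at 11.5 ± 1.72 CPM (n = 3) and Δ/DN US at 9.69 ± 2.98 CPM (n = 4), whose libraries overlap, and Δ/DN LPS lowest at 5.06 ± 1.67 CPM (n = 4). Tgfbr3 is known from stromal cells, and the summed level of 12 stromal and endothelial marker genes was lower in Δ/DN under both treatments, although most of the 12 were not called at adjusted p under 0.05. The sum was 54.5 to 98.3 CPM in Δ/DN LPS and 130 to 169 CPM in Δ/+ LPS, and 16.6 to 27.7 CPM in Δ/DN US and 35.5 to 53.6 CPM in Δ/+ US libraries. Most of that sum was Kdr (57.6 and 108 CPM on average in Δ/DN and Δ/+ with LPS, 7.57 and 18.5 CPM without) and Lepr (3.45 and 14.3 CPM with LPS, 5.83 and 13.2 CPM without), while Lum had no read in any US library. With LPS only Lepr was called among the 12 (lower in Δ/DN), 8.33% of them, where 8.6% of all genes tested were called. Without LPS Lepr and Pecam1 were called lower and the collagen gene Col1a2 higher, 25% of the 12, where 10.5% of all genes were called. Col1a2 averaged 0.745 CPM in Δ/DN US against 0.202 CPM in Δ/+ US libraries, and Col1a1 averaged 0.635 CPM against 0.419 CPM, opposite in direction to the sum. The summed levels were higher with LPS, where Tgfbr3 was lower, and the part of such cells in the genotype difference was not tested. Tgfbr3 shares 297 exon bases with Gm43422 on the same strand.

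The genes whose log2 CPM was most like that of Tgfbr3 over the 15 libraries were Arl14ep (Pearson r = 0.950, Spearman rho = 0.914), Ankrd28 (r = 0.949, rho = 0.943), Syncrip (r = 0.948, rho = 0.936), Gnl2 (r = 0.947, rho = 0.946) and Fam181b (r = 0.945, rho = 0.950). These values describe 15 libraries that fall into 4 groups and share depth and culture, so group differences are part of each r. Ankrd28, a regulatory subunit of protein phosphatase 6, averaged 23.0 ± 6.13 CPM in Δ/DN LPS, 38.9 ± 0.92 CPM in Δ/+ LPS, 35.0 ± 10.1 CPM in Δ/DN US and 86.0 ± 46.3 CPM in Δ/+ US libraries (SD, n = 4, 3, 4 and 4). Syncrip, an RNA-binding protein of the hnRNP family, averaged 136 ± 5.27, 157 ± 6.70, 147 ± 13.5 and 204 ± 19.2 CPM in the same groups, the same order of levels as Tgfbr3. Of the other 9 genes followed here, Smad7 was closest to Tgfbr3 (r = 0.716, rho = 0.675) and Tgfb3 the most opposed (r = -0.855, rho = -0.768).

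**Figure D2:**
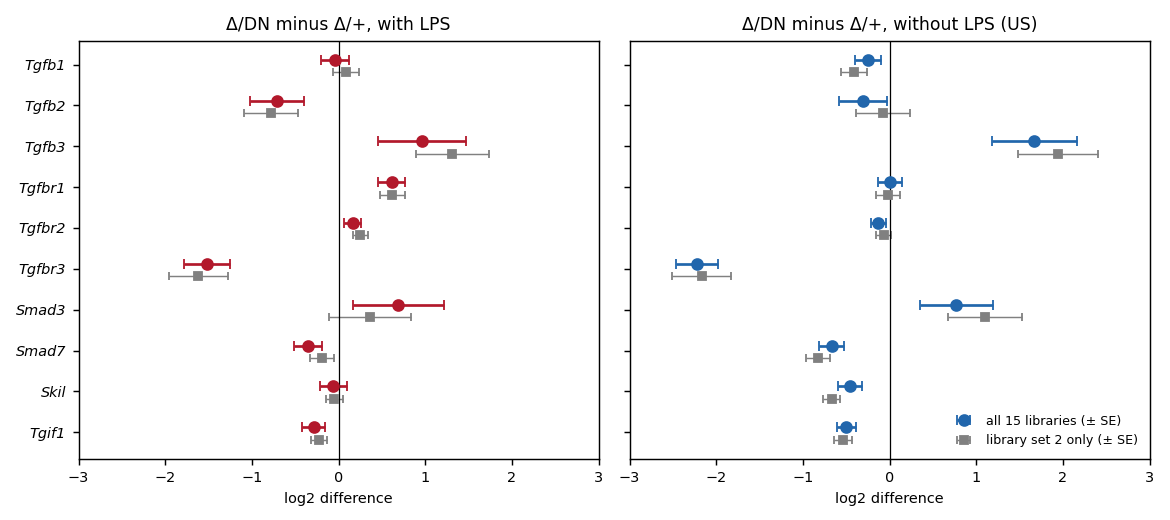
Log2 difference of Δ/DN from Δ/+ (± SE) for the 10 genes with LPS (left) and without (right), from all 15 libraries (coloured circles) and from library set 2 alone (grey squares), with 0 marked by a line. Tgfbr3 lies at -1.52 with LPS and -2.22 without. Without LPS Tgfb3 lies at 1.67, and Tgfb1 (-0.25), Tgfb2 (-0.31), Tgfbr2 (-0.13), Smad7, Skil and Tgif1 lie below 0.

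Smad3, a receptor-activated SMAD, was scarce, with 22 to 183 reads a library. It had 0.484, 0.710, 0.562 and 1.71 CPM in Δ/DN LPS libraries and 0.395, 0.645 and 0.367 CPM in Δ/+ LPS libraries. Without LPS it had 1.10, 2.06, 0.885 and 1.65 CPM in Δ/DN and 0.480, 1.12, 0.574 and 1.05 CPM in Δ/+. The ranges of the genotypes overlapped under both treatments, with log2 differences of 0.69 ± 0.52 with LPS and 0.77 ± 0.42 without. LPS minus US was -0.78 ± 0.42 in Δ/DN and -0.69 ± 0.48 in Δ/+. With each culture compared with itself, the Δ/DN value was -0.80 ± 0.29. Smad2, the other receptor-activated SMAD of this branch, was far more abundant per base of transcript, at 7.38 RPKM in Δ/DN LPS libraries against 0.157 RPKM for Smad3.

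Smad7, the inhibitory SMAD that binds the type I receptor and is itself induced by TGF-beta, had 11.8, 11.8, 10.0 and 9.71 CPM in Δ/DN LPS libraries and 14.8, 11.6 and 13.9 CPM in Δ/+ LPS libraries. Without LPS it had 9.08, 8.30, 13.2 and 9.52 CPM in Δ/DN, against 14.7, 16.6, 14.5 and 16.8 CPM in Δ/+. Δ/DN US libraries all lay below Δ/+ US libraries, with culture 3 the nearest, while the LPS libraries overlapped. The log2 difference was -0.67 ± 0.14 without LPS (-0.82 to -0.58 in the 8 refits without 1 library) and -0.35 ± 0.16 with LPS. LPS minus US was 0.12 ± 0.14 in Δ/DN and -0.20 ± 0.15 in Δ/+. Without culture 3 the Δ/DN value was 0.33 ± 0.13.

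Skil, or SnoN, and Tgif1 are nuclear corepressors of SMAD complexes, and both were high with LPS. Skil lay at 575, 517, 565 and 515 CPM in Δ/DN LPS libraries, against 140, 124, 192 and 124 CPM in Δ/DN US libraries. In Δ/+ it lay at 536, 553 and 607 CPM with LPS, against 213, 216, 195 and 169 CPM without. The treatments were far apart and the LPS libraries of the genotypes overlapped. The log2 difference of LPS from US was 1.90 ± 0.14 in Δ/DN and 1.51 ± 0.15 in Δ/+, and that of Δ/DN from Δ/+ was -0.06 ± 0.16 with LPS and -0.46 ± 0.14 without. The difference without LPS was -0.62 to -0.36 in the 8 refits without 1 library and -0.62 ± 0.09 without culture 3.

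Tgif1 lay at 94.5, 88.8, 87.2 and 76.8 CPM in Δ/DN LPS libraries, against 39.6, 35.8, 46.3 and 30.4 CPM in Δ/DN US libraries. In Δ/+ it lay at 107, 101 and 115 CPM with LPS, against 52.8, 58.1, 51.5 and 54.6 CPM without. LPS libraries stood above all US libraries, and Δ/DN libraries stood below Δ/+ libraries under both treatments. The log2 difference of LPS from US was 1.19 ± 0.11 in Δ/DN and 0.98 ± 0.12 in Δ/+. Between genotypes it was -0.50 ± 0.11 without LPS (-0.63 to -0.43 in the 8 refits without 1 library) and -0.29 ± 0.13 with LPS.

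**Figure D3:**
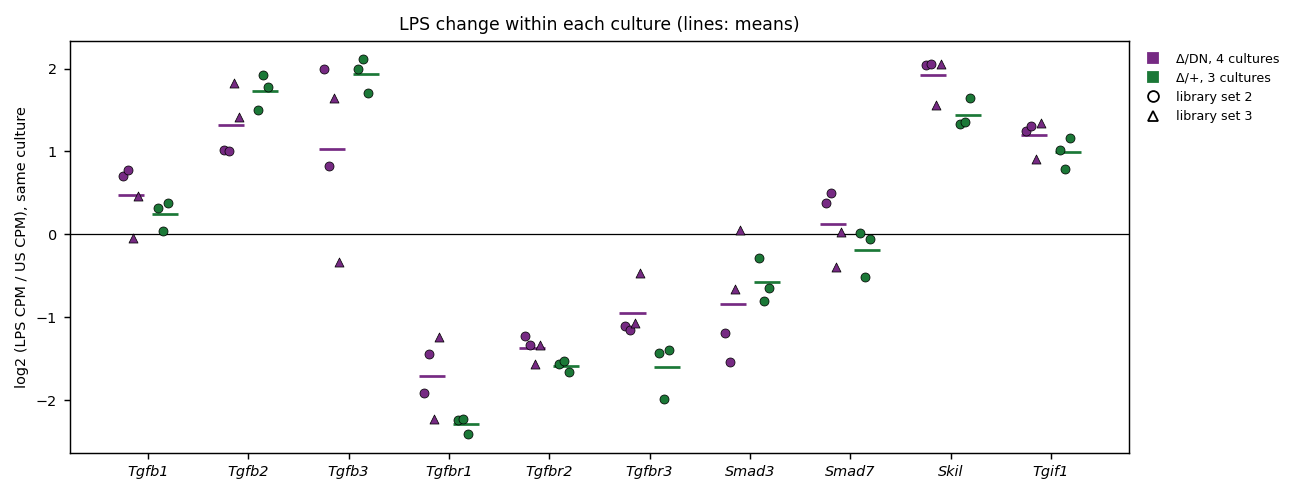
Log2 of the LPS CPM over the US CPM of the same culture for each of the 10 genes, in 4 Δ/DN cultures (purple) and 3 Δ/+ cultures (green), with lines for the means. Tgfbr1, Tgfbr2 and Tgfbr3 lie below 0 and Tgfb2, Skil and Tgif1 above 0 in all 7 cultures.

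The LPS and US libraries of a culture were also compared with each other. Tgfbr1 changed by -2.23 to -1.24 log2 units in the 4 Δ/DN cultures and by -2.41 to -2.23 in the 3 Δ/+ cultures. Tgfbr2 changed by -1.57 to -1.23 and by -1.66 to -1.53, and Tgfbr3 by -1.16 to -0.47 and by -1.99 to -1.40, each in Δ/DN and Δ/+. Skil was higher with LPS by 1.56 to 2.06 in Δ/DN and 1.33 to 1.64 in Δ/+ cultures, and Tgif1 by 0.91 to 1.34 and 0.79 to 1.16. Tgfb1, Tgfb3, Smad3 and Smad7 had cultures on both sides of 0.

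At adjusted p under 0.05, 7 of the 10 genes were called between LPS and US in Δ/DN (4 higher, 3 lower), where 48.2% of all genes tested were called (23.1% higher, 25.1% lower). In Δ/+ there were also 7 (4 higher, 3 lower), where 47.7% of all genes were called (22.4% higher, 25.3% lower). Between genotypes 2 were called with LPS (Tgfbr1 higher, Tgfbr3 lower), where 8.6% of all genes were (5.37% higher, 3.23% lower). There were 4 without LPS (Tgfb3 higher, Tgfbr3, Smad7 and Tgif1 lower), where 10.5% were (5.01% higher, 5.45% lower). In refits without 1 library and without LPS, Tgfb3 stayed called in 2 of 8, Smad7 and Tgif1 in 5 of 8 and Tgfbr3 in all 8. With LPS, Tgfbr1 stayed called in 3 of 7 and Tgfbr3 in 5 of 7. Nothing is read from these counts, because the genes were listed with these contrasts known. The difference between the LPS effects was called for none of the 10 genes and for 0.00479% of all genes (1 of 20865). An unadjusted p under 0.05 was found for 2 of the 10 and for 8.98% of all genes. The difference was 0.61 ± 0.20 for Tgfbr1, 0.69 ± 0.34 for Tgfbr3, 0.29 ± 0.13 for Tgfbr2 and 0.39 ± 0.20 for Skil, Δ/DN minus Δ/+. With each culture compared with itself 0.509% of genes were called and again none of the 10.

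Per base of transcript the 10 genes spanned a wide range. In Δ/DN LPS libraries the order was Tgfb1 at 88.6 ± 9.25 RPKM, Skil at 56.0, Tgif1 at 15.4, Tgfbr1 at 9.29, Tgfbr2 at 3.83, Smad7 at 2.40, Tgfbr3 at 0.774, Tgfb2 at 0.259, Tgfb3 at 0.231 and Smad3 at 0.157 RPKM, of which the last 3 overlap in their spread. In Δ/+ US libraries Tgfb1 was again first at 75.9 ± 5.35 RPKM, followed by Tgfbr1 at 31.6, Skil at 20.5, Tgfbr2 at 10.4, Tgif1 at 9.65, Tgfbr3 at 6.22 and Smad7 at 3.46 RPKM, with Tgfb2 (0.153), Smad3 (0.145) and Tgfb3 (0.0399 RPKM) last. Tgfbr3 thus stood above Smad7 in Δ/+ US and below it in Δ/DN LPS libraries.

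The rest of the TGF-beta superfamily was followed in 6 lists of 85 other genes, of which 68 were tested. The lists were drawn up with earlier results of these libraries known, and the p-values below come from edgeR's quasi-likelihood test adjusted over all 20865 genes. With LPS, 37 of the 68 rose and 11 fell in Δ/DN (median log2 difference 0.41, all genes -0.09), where 23.1% of all genes tested rose and 25.1% fell. In Δ/+ 27 rose and 11 fell (median 0.22, all genes -0.08), where 22.4% of all genes rose and 25.3% fell. Between genotypes with LPS, 2 were higher and 7 lower in Δ/DN (median -0.09, all genes 0.01), where 5.37% of all genes were higher and 3.23% lower. Without LPS 3 were higher and 12 lower (median -0.24, all genes 0.01), where 5.01% of all genes were higher and 5.45% lower. The same shares are the background of the counts per list that follow.

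**Figure D4:**
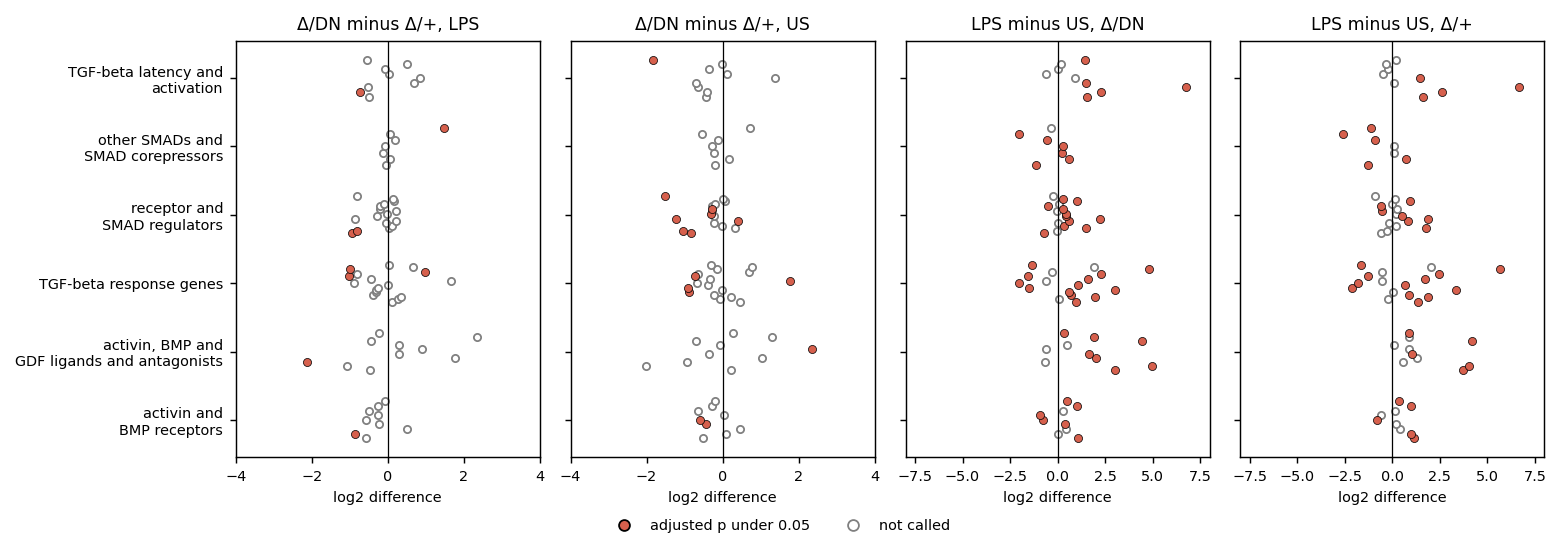
Log2 differences (axis) of the 68 tested genes in 6 lists of the TGF-beta superfamily, each point a gene, filled where the adjusted p was under 0.05, for Δ/DN minus Δ/+ with LPS and US and for LPS minus US in Δ/DN and Δ/+ (the right pair has a wider axis). Itgb8 lies farthest to the right in both LPS comparisons, at 6.78 and 6.65.

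Of 9 tested genes of latency and activation, 5 rose with LPS in Δ/DN and 4 in Δ/+, and none fell. Itgb8, the integrin chain that with alpha V sets TGF-beta free, averaged 57.8 ± 21.4 CPM in Δ/DN LPS (SD, n = 4), against 0.534 ± 0.192 CPM in Δ/DN US libraries (n = 4), a log2 rise of 6.78 ± 0.42 (adjusted p = 8.76e-08). In Δ/+ it averaged 106 ± 28.3 CPM with LPS (n = 3), against 0.997 ± 0.483 CPM without (n = 4), a rise of 6.65 ± 0.42 (adjusted p = 9.62e-08). Itgav, the alpha V chain, rose by 2.28 ± 0.18 in Δ/DN and 2.60 ± 0.20 in Δ/+ (adjusted p = 2.26e-07 and adjusted p = 1.23e-07). With LPS it was lower in Δ/DN, at 322 ± 90.1 CPM against 523 ± 32.9 CPM in Δ/+ (-0.74 ± 0.20, adjusted p = 0.0389, called in 3 of 7 refits without 1 library).

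Thbs1, thrombospondin-1, an activator of latent TGF-beta, was the gene of these lists with the smallest p between genotypes. Without LPS it averaged 1770 ± 392 CPM in Δ/DN, against 6172 ± 1713 CPM in Δ/+ (SD, n = 4 each), a log2 difference of -1.83 ± 0.21 (adjusted p = 0.000805), which was called in all 8 refits that left out 1 library. With LPS it averaged 4835 ± 578 CPM in Δ/DN (n = 4) and 6843 ± 840 CPM in Δ/+ (n = 3). It rose with LPS in Δ/DN by 1.46 ± 0.20 (adjusted p = 3.31e-05). The difference between the LPS effects was 1.28 ± 0.30 (adjusted p = 0.239), and 1.18 ± 0.24 with each culture compared with itself (adjusted p = 0.0489).

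Of 7 other SMADs and corepressors, 3 rose and 3 fell with LPS in Δ/DN, and 1 rose and 4 fell in Δ/+. Smad6, the inhibitory SMAD of the BMP branch, fell by 2.02 and Ski, a corepressor related to Skil, fell by 1.11 on the log2 scale in Δ/DN (adjusted p = 0.00158 and adjusted p = 3.56e-06). In Δ/+ Smad6 fell by 2.62 and Ski by 1.29 (adjusted p = 0.000625 and adjusted p = 2.42e-06). Ski averaged 58.5 ± 11.4 CPM in Δ/DN LPS against 127 ± 10.7 CPM in Δ/DN US libraries, so that it was lower with LPS where Skil was higher. Tgif2, a relative of Tgif1, was higher in Δ/DN with LPS, at 0.874 ± 0.167 CPM against 0.407 ± 0.035 CPM in Δ/+ (1.47 ± 0.31, adjusted p = 0.0157, called in 4 of 7 refits without 1 library).

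Of 16 receptor and SMAD regulators, 9 rose and 2 fell with LPS in Δ/DN, and 5 rose and 2 fell in Δ/+. Usp15, a deubiquitinase of receptor-activated SMADs, rose by 1.01 ± 0.11 in Δ/DN and 0.91 ± 0.12 in Δ/+ (adjusted p = 2.54e-06 and adjusted p = 1.38e-05). Without LPS 1 of the 16 was higher and 6 lower in Δ/DN. Dab2, an adaptor of receptor traffic and SMADs, averaged 325 ± 109 CPM in Δ/DN, against 612 ± 186 CPM in Δ/+ (SD, n = 4 each), a log2 difference of -1.05 ± 0.20 (adjusted p = 0.00883) that lost its call without Δ/+ US replicate 4. Bambi, a decoy receptor without a kinase, was lower without LPS by -0.82 ± 0.23 (adjusted p = 0.0361) and with LPS by -0.93 ± 0.26 (adjusted p = 0.0437), called in 2 of 8 and 1 of 7 refits without 1 library. Nedd4l, a ubiquitin ligase of SMADs, was higher at 0.41 ± 0.10 (adjusted p = 0.0233), called in 5 of 8.

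Of 17 response genes, 9 rose and 4 fell with LPS in Δ/DN, and 8 rose and 4 fell in Δ/+. Gadd45b, a stress response gene, rose by 3.04 ± 0.26 on the log2 scale in Δ/DN and 3.33 ± 0.27 in Δ/+. Klf10, a TGF-beta-inducible zinc finger gene, fell by 1.56 in Δ/DN and 1.28 in Δ/+, and Id1, an inhibitor of bHLH factors, fell by 1.48 and 2.15. These genes also respond to signals other than TGF-beta, and those that moved with LPS did not move in 1 direction.

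Between genotypes Klf10 was lower in Δ/DN with LPS, at 15.2 ± 2.35 CPM against 25.4 ± 6.35 CPM in Δ/+ (-1.03 ± 0.20, adjusted p = 0.0141), and without LPS, at 45.4 ± 14.4 CPM against 70.0 ± 24.2 CPM (-0.74 ± 0.18, adjusted p = 0.0226). Both calls held in 4 of the refits without 1 library, of 7 and of 8. Runx3, a transcription factor of lymphoid and dendritic cells, was higher in Δ/DN with LPS (0.97 ± 0.26, adjusted p = 0.039), called in 2 of 7 refits. Without LPS Id1 (-0.92 ± 0.19, adjusted p = 0.0123) and the fibronectin gene Fn1 (-0.89 ± 0.20, adjusted p = 0.0162) were lower, called in 6 and 5 of 8 refits. Itgae, which encodes the CD103 integrin chain, was higher (1.77 ± 0.44, adjusted p = 0.0263), with 1.80 to 15.04 CPM in Δ/DN against 0.978 to 3.18 CPM in Δ/+, and was called in 3 of 8.

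Of 10 tested activin, BMP and GDF ligands and antagonists, 7 rose with LPS in Δ/DN and 5 in Δ/+, and none fell. Inhba, the activin A subunit, averaged 4067 ± 921 CPM in Δ/DN LPS against 190 ± 161 CPM in Δ/DN US libraries, and 5247 ± 789 CPM in Δ/+ LPS against 296 ± 47.0 CPM in Δ/+ US libraries. It rose by 4.45 ± 0.50 and 4.17 ± 0.51 (adjusted p = 1.1e-05 and adjusted p = 1.89e-05). Fst, which encodes the activin antagonist follistatin, rose by 4.99 ± 0.66 in Δ/DN (adjusted p = 5.93e-05), to 239 ± 116 CPM against 7.60 ± 7.01 CPM without LPS. In Δ/+ Fst averaged 497 ± 117 CPM with LPS (n = 3), against 30.3 ± 7.05 CPM without (n = 4). Bmp2 rose by 3.01 ± 0.42 and 3.70 ± 0.45 and was at most 3.02 CPM. Between genotypes Gdf3 was higher in Δ/DN without LPS (2.34 ± 0.62, adjusted p = 0.0325, called in 2 of 8 refits) and Fstl3 lower with LPS (-2.13 ± 0.62, adjusted p = 0.0472, called in 1 of 7). Fstl3 rested on few reads, 4 to 12 in Δ/DN LPS and 16 to 30 in Δ/+ LPS libraries.

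Of 9 tested activin and BMP receptors, 4 rose and 2 fell with LPS in Δ/DN, and 4 rose and 1 fell in Δ/+. Acvr1b, the type I receptor of activin, averaged 35.8 ± 4.10 CPM in Δ/DN LPS (SD, n = 4) and 62.2 ± 13.6 CPM in Δ/+ LPS libraries (n = 3), a log2 difference of -0.85 ± 0.14 (adjusted p = 0.00691) called in all 7 refits without 1 library. Without LPS it averaged 35.5 ± 3.24 CPM in Δ/DN and 32.4 ± 2.15 CPM in Δ/+ (n = 4 each). It rose with LPS in Δ/+ by 0.96 ± 0.13 (adjusted p = 2.27e-05). The LPS effects differed by -0.95 ± 0.18 (adjusted p = 0.164), and by -0.88 ± 0.16 with each culture compared with itself (adjusted p = 0.0373). Bmpr2, a type II receptor, rose by 1.01 ± 0.14 in Δ/DN and 0.99 ± 0.15 in Δ/+, opposite in direction to the difference in Tgfbr2. Acvr2a (-0.43 ± 0.12, adjusted p = 0.0378) and Acvr2b (-0.59 ± 0.18, adjusted p = 0.0456), the activin type II receptors, were lower in Δ/DN without LPS, called in 3 and 1 of 8 refits.

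Across the 6 lists the difference between the LPS effects was called for 0 of 68 genes by edgeR's quasi-likelihood test, 8 of the 68 had an unadjusted p under 0.05, where 8.98% of all genes tested had one, and the DESeq2 Wald test called 2. The count of list genes called between genotypes changed when single libraries were left out. Without LPS it was 15. It became 2, 27 and 7 in refits that dropped the Δ/DN US replicates 2, 3 and 4 in turn, and 9, 3 and 2 in those that dropped the Δ/+ US replicates 1, 2 and 4. With LPS it was 9, but 1 without Δ/DN LPS replicate 2 or Δ/+ LPS replicate 1 or 2. The share of all genes called in each refit is not given here, so these changes are not read as particular to the list genes.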

How the data were processed

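RNA of 15 BMDC libraries was depleted of ribosomal RNA and sequenced, per the labels' protocols. The authors deposited raw read counts per gene, 1 table per library with 50554 genes, and the counts were used as deposited. Trimmomatic 0.33, HISAT2 2.2.1, bedtools, edgeR, featureCounts and FastQC are listed in the submitters' processing notes, and the build is GRCm39 (mm39). How strand was used and whether mates were counted singly are not given in the sources used here. Counts of 2 outnumbered counts of 1 and 3 in 12 of 15 libraries.

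The 10 genes and all gene lists were chosen with earlier results of these data known. All 15 libraries entered 1 model in edgeR 4.0.16 (limma 3.58.1, R 4.3.3) with 4 groups and library set (the prefix 2 or 3 of the library names) as an additive term. TMM normalisation, filterByExpr with a minimum count of 10, the robust quasi-likelihood F test and Benjamini-Hochberg adjustment over 20865 genes were used, and a gene was called at adjusted p under 0.05. Groups and replicate numbers come from the sample titles and genotype fields. Set 2 held 2 Δ/DN LPS, 3 Δ/+ LPS, 2 Δ/DN US and 3 Δ/+ US libraries, and set 3 held 2 Δ/DN LPS, 2 Δ/DN US and 1 Δ/+ US library. Depth was 37256651 to 104041282 reads, and a gene with few reads, such as Tgfb3 or Smad3, has the least precise level. Reads carry no molecular identifiers.

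Library names tie the LPS and US library of a culture, and their deviations from the group means correlated at 0.064 to 0.428. Culture was therefore also used as a block (DESeq2 1.42.0, other filters, sets and left-out libraries were further alternatives). Whether cultures came from different mice was not stated, so p-values speak of cultures and not of mice, and the model above took libraries of a culture as independent.

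Levels between genes are RPKM over the exon lengths of GENCODE M21, and the deposited gene lengths (unit: bases) were not used, because for Skil and Tgif1 they exceed the whole gene in RefSeq. The named list genes are, per list and comparison, the called genes with the 3 smallest p in each direction, of which 1 response gene is not reported here; Tgfbr3 was matched to the 5 genes with the highest Pearson r of log2 CPM (prior count 2). Promoters are RefSeq sequence of GRCm38.p6, another build than that of the counts.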

Additional observations from a re-analysis of the deposited data

Results flagged for a closer look

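Tgfbr2 in Δ/+ US replicate 4, at 112 CPM, lay far above the other 3 Δ/+ US libraries (75.0 to 78.4 CPM), with a gap of 0.907 of the group's range. That library is the only Δ/+ library of set 3. It was the 1 case among 30 sets of 4 libraries examined for the 10 genes, and chance flags about 1 in 20 such sets.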

How the results depend on the processing

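Between genotypes, the number of list genes called without LPS was 15 and became 24 with the DESeq2 Wald test, 8 with no filter on low counts, 8 with no library set term, 8 with the replicate number as a block and 29 without Δ/DN culture 3 (chosen after the data were seen). With LPS it was 9 and became 4, 3, 3 and 15 with no filter, no set term, the replicate block and without culture 3. Of the 10 genes, 2 were called with LPS, 1 with no set term and 0 with the replicate block. Same-numbered libraries of different genotypes correlated at -0.089 to 0.146, so there the number pairs nothing. For the difference of LPS effects 0 list genes became 2 with the DESeq2 Wald test, 1 with no filter and 2 with culture as the replicate block. Refits without 1 library gave 2 to 27 list genes without LPS, 1 to 11 with LPS, 43 to 49 for LPS in Δ/DN, 35 to 41 for LPS in Δ/+ and 0 to 0 for the difference. The same refits called, as a description, 1 to 6 of the 10 genes without LPS, 0 to 2 with LPS, 6 to 8 for LPS in Δ/DN, 6 to 7 in Δ/+ and 0 for the difference. Over all alternatives no log2 difference of the 10 genes or of a named list gene changed sign with a call. Of 850 values of the 10 genes, 28 moved by at least the mean SD of log2 CPM within the groups compared. That SD is a spread between libraries and not the SE of the difference. Of 1149 refitted values of named genes, 147 lost their call. The causes were not tested. Except for the difference of LPS effects with culture as the block, the share of all genes called under each alternative is not given here. Low counts limit Tgfb3, Smad3 and Tgfb2, and list genes such as Fstl3.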
